A study of Mus musculus with 8 samples.

Results

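The erythroid-primed wells were single bone marrow cells in which the raw counts of Car1, Gata1 and Klf1 summed to 3 or more, and they numbered 83 of 2727 wells kept (3.04%). A well was kept when it held at least 1000 gene counts and 500 genes. The cells were sorted as LSK, marrow cells positive for Sca1 and cKit among which the stem cells of blood and their first progeny are found, after enrichment on cKit (CD117) beads and lysis of red cells. The donors were Dach1-GFP mice on a C57BL/6 background, 8 to 16 weeks old, with no treatment. Their Dach1 gene carries a biotin tag and an IRES-GFP cassette at its end (the Dach1bio-GFP allele, derived from 1 targeted embryonic stem cell clone), so that GFP is made from the Dach1 transcript in every cell type that transcribes it; whether 1 or both copies were tagged is not given. RNA was read by CEL-seq2, a 3′ end method with 1 cell barcode per well, on 8 plates of 384 wells. The labels name 4 LC plates (replicates 1 to 4) and 4 LCE plates (replicates 5 to 8). The plate was the unit of replication: each is 1 library, and because the labels do not say which mice a plate held, p-values reflect only how far plates differ, and that spread may be technical.

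Red cells arise from multipotent progenitors through stages at which the transcription factor GATA1, its cofactor FOG1 (encoded by Zfpm1) and the factor KLF1 switch on genes for haemoglobin, haem synthesis, iron uptake and the red cell membrane. Car1 encodes carbonic anhydrase 1, an abundant red cell enzyme that is transcribed early in this lineage. Erythropoietin acts through its receptor, encoded by Epor, on progenitors that are already committed. Most such progenitors lack Sca1 and lie outside the LSK gate, so the cells described here are those found inside it.

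The 8 plates were unequal in depth and in erythroid signal. Median counts per well ranged from 5644.5 to 13370 over plates, with the LC plates deeper than the LCE plates, and the total of a plate's kept wells from 2106403 to 5196601. All 8 count tables used the same 383 well names, since each plate is a library of its own with the same set of barcodes. By Car1, replicates 6 and 8 stood apart, with 6 and 1 counts in all kept wells, against 49 to 472 on the other 6 plates. Klf1 had 26, 5, 28 and 2 counts on replicates 5 to 8. Gata1 had 13, 4, 18 and 16, so by Gata1 replicate 8 did not stand apart from the other LCE plates. Replicate 8 held no erythroid-primed well (0 of 342, which allows a share of up to 0.877%), so comparisons within plates used 7 plates. Replicate 6 held 2, and 1 count in their summed RNA was worth 60.4 CPM, counts scaled to a total of 1000000.

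The erythroid-primed wells numbered 8, 31, 12 and 23 on the LC plates (replicates 1 to 4), and 2, 2, 5 and 0 on the LCE plates (replicates 5 to 8). They made 5.42% of LC wells (74 of 1365, 95% Clopper-Pearson interval 4.28% to 6.76%) and 0.661% of LCE wells (9 of 1362, interval 0.303% to 1.25%), intervals that cover counting error only. When each well was thinned to 3000 counts before the rule was applied, 27 of 2685 wells (1.01%) qualified, 1.62% of LC and 0.378% of LCE wells. The rule took 46 wells near its limit, 32 with a sum of 3 and 14 with a sum of 4. Just outside it were 88 wells with a sum of 2 and 399 with a sum of 1, and 2157 wells had none of the 3 transcripts. The sums fell into 2 ranges with none at 9 or 10: 54 wells held 3 to 8 counts and 29 wells held 11 to 139. These ranges were read off the data, so what follows about them is a description without a test.

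**Figure D1:**
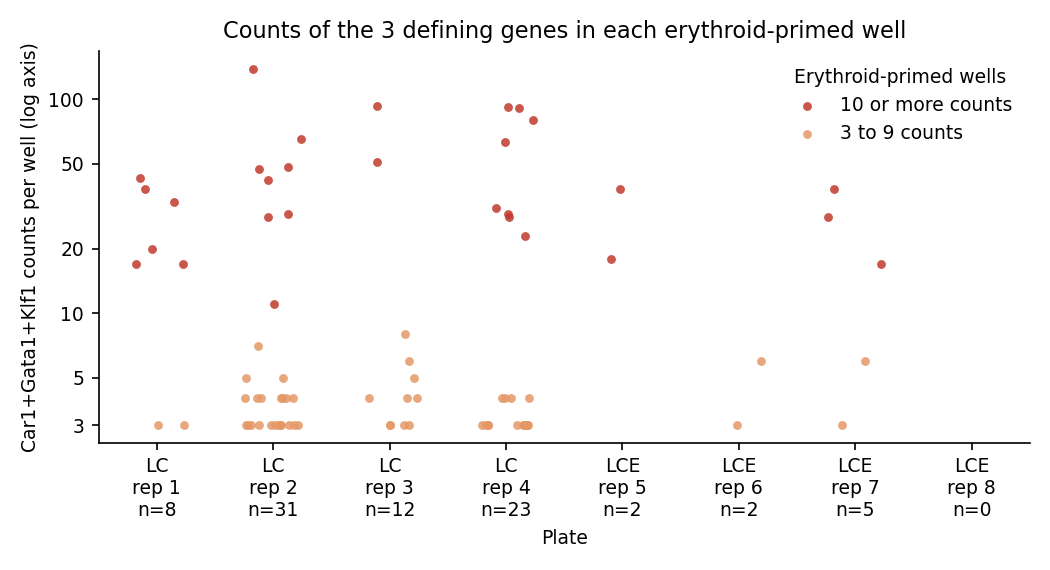
Summed raw counts of Car1, Gata1 and Klf1 (log axis) in each of the 83 erythroid-primed wells, by plate, 1 point per well. The 29 wells of 11 to 139 counts (red) lie apart from the 54 wells of 3 to 8 counts (orange); replicates 2 and 4 hold the most wells (31 and 23) and replicate 8 none.

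The 3 chosen transcripts did not always occur together. All 3 were detected in 22 of the 83 wells, Car1 and Gata1 in 12, Car1 and Klf1 in 9, and Gata1 and Klf1 in 7. A single one was detected in the other wells: Car1 in 19, Gata1 in 12 and Klf1 in 2. Single Car1 counts were also common elsewhere. At least 1 was seen in 20.5% of the other LC wells (265 of 1291, median depth 12362 counts) and in 3.40% of the other LCE wells (46 of 1353, median depth 6286). Wells with the B cell transcripts that a cell of the red lineage should lack showed a like share, 4 of 26 on LC plates (15.4%, interval 4.36% to 34.9%, median depth 8580) and 2 of 37 on LCE plates (5.41%, median depth 6650). The B cell wells were few and differed in depth from the other wells. Whether single Car1 counts were background or transcription in the well's own cell was not tested. Of those B cell wells 0 of 26 and 0 of 37 met the rule, with intervals up to 13.2% and 9.49%, above the shares of all wells that met it. Of wells with 5 or more counts of Dntt, a lymphoid gene, 4 of 152 on LC plates met the rule (2.63%, median depth 12520). On LCE plates 0 of 165 did (interval up to 2.21%, median depth 7493). A Car1 count was seen in 32 (21.1%) and 6 (3.64%) of these wells.

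Since the rule used Car1, Gata1 and Klf1, their levels in the 83 wells are a description. Car1 averaged 725 ± 231 CPM in erythroid-primed wells and 12.8 ± 7.94 CPM in the other wells of the same plates (SD, n = 7 plates). To measure each gene where it was not used, the wells were also chosen by the remaining genes. In 77 wells chosen by Gata1 and Klf1 counts of 2 or more, Car1 was 543 ± 383 CPM, against 14.8 ± 11.3 CPM in the other wells (log2 difference 5.11 ± 0.20, SE; edgeR adjusted p = 1.3e-145), and was higher on 6 of 8 plates. In 52 wells chosen by Car1 counts of 3 or more, Gata1 was 121 ± 37.7 CPM, against 7.27 ± 4.0 CPM in the other wells (3.65 ± 0.36, edgeR adjusted p = 6.91e-21), and higher on 7 of 7 plates. Klf1 was 138 ± 81.2 CPM in those 52 wells, against 5.10 ± 3.55 CPM (4.86 ± 0.35, edgeR adjusted p = 5.64e-40), and higher on 6 of 7 plates. Each of the 3 transcripts was thus higher in wells chosen without it.

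Zfpm1, the marker the rule left out, was 195, 106, 125 and 111 CPM in the erythroid-primed wells of replicates 1 to 4 and 236, 181 and 132 CPM in those of replicates 5 to 7. In the other wells it was 45.7, 50.2, 35.7 and 42.3 CPM on replicates 1 to 4 and 41.1, 30.4 and 46.6 CPM on replicates 5 to 7. Every plate's erythroid-primed value lay above every plate's value for the other wells. The log2 difference was 1.62 ± 0.23 (SE; edgeR's quasi-likelihood test with plate as a block, adjusted p = 1.79e-10 over all genes tested), and 0.59 and not past the threshold of 0.05 in wells thinned to 3000 counts.

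Across all genes, 249 of 10365 tested (2.4%) were higher and 436 (4.21%) lower in erythroid-primed wells than in the other wells of their plate, 6.61% in all, and the median log2 difference of all genes was -0.10. DESeq2 called 233 higher and 241 lower. These sums over wells do not tell a smaller share of cells that transcribe a gene from less RNA per cell. For some genes the number of wells with a count is given below. The rule selects on raw counts, and erythroid-primed wells were deeper: the median log2 count was higher by 0.589 ± 0.583 on average (13.8 in erythroid-primed and 13.2 in other wells; higher on 7 of 7 plates, exact sign-flip permutation p = 0.0156, the smallest 7 plates can give, adjusted p = 0.0234 over 3 measures). Among wells above the median depth of their plate, the test called 255 genes higher and 480 lower, close to the counts without this limit. In wells thinned to 3000 counts, with the 83 wells still chosen by their full counts, it called 39 in place of 685. Leaving out replicate 1, 2 or 4 gave 448, 452 or 393 calls in place of 685.

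Most genes of early red cell progenitors were higher, and they were concentrated in the wells with the highest rule counts, as given below. All 13 of the 26 listed genes that could be tested rose in erythroid-primed wells, beside 2.4% of all genes tested, and their median log2 difference was 2.98, against -0.10 over all genes. The other 13 genes had too few counts to pass the filter. Of these, 12 had more CPM in erythroid-primed wells and Cd36, a fatty acid transporter of later red cell precursors, had 0 counts there. A gene that is high in so few wells passes such a filter through them, so the fit without the filter is the fuller one: it called 24 of the 26 higher and none lower. With LC plates alone 22 of 23 tested rose, and with LCE plates alone 9 of 11. In wells thinned to 3000 counts 3 of 7 did.

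Epor, the erythropoietin receptor, ranged over plates from 43.4 to 163 CPM in erythroid-primed wells (median 70.4) and from 0.429 to 4.44 CPM in the other wells (median 1.85). The 2 ranges did not overlap. The log2 difference was 4.98 ± 0.39 (SE, n = 7 plates; edgeR adjusted p = 1.24e-33). Aqp1, the water channel of the red cell membrane, ranged from 86.8 to 294 CPM (median 151) in erythroid-primed wells and from 3.0 to 8.73 CPM (median 5.18) in the other wells, again without overlap (4.69 ± 0.30, edgeR adjusted p = 5.45e-50). Car2, encoding carbonic anhydrase 2, was the most abundant gene of the list. It ranged from 667 to 2505 CPM (median 1318) in erythroid-primed wells and from 193 to 589 CPM (median 358) in the other wells (1.82 ± 0.15, edgeR adjusted p = 2.97e-32).

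Ermap encodes a membrane protein of erythroid cells related to butyrophilins. It was 249, 149, 97.7 and 198 CPM in the erythroid-primed wells of replicates 1 to 4 and 381, 0 and 191 CPM in those of replicates 5 to 7, and averaged 3.41 ± 2.65 CPM in the other wells. Replicate 6, with its 2 wells, was the exception at 0 counts; on the other 6 plates Ermap was higher (log2 difference 5.49 ± 0.30, edgeR adjusted p = 5.19e-71). The other genes of the list that rose were Gfi1b, a repressor needed for red cell and platelet formation (2.98 ± 0.36), Blvrb, a biliverdin reductase (3.37 ± 0.25), Trib2, a pseudokinase (3.49 ± 0.45), Hebp1, a haem-binding protein (3.14 ± 0.39), Mfsd2b, a transporter of sphingosine-1-phosphate (2.79 ± 0.38), Minpp1, a phosphatase of inositol phosphates (1.95 ± 0.23), Tfrc, the transferrin receptor (1.83 ± 0.24) and Slc14a1, the urea transporter of the Kidd blood group (1.42 ± 0.34; 1.29 and no longer past the threshold without replicate 4).

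**Figure D2:**
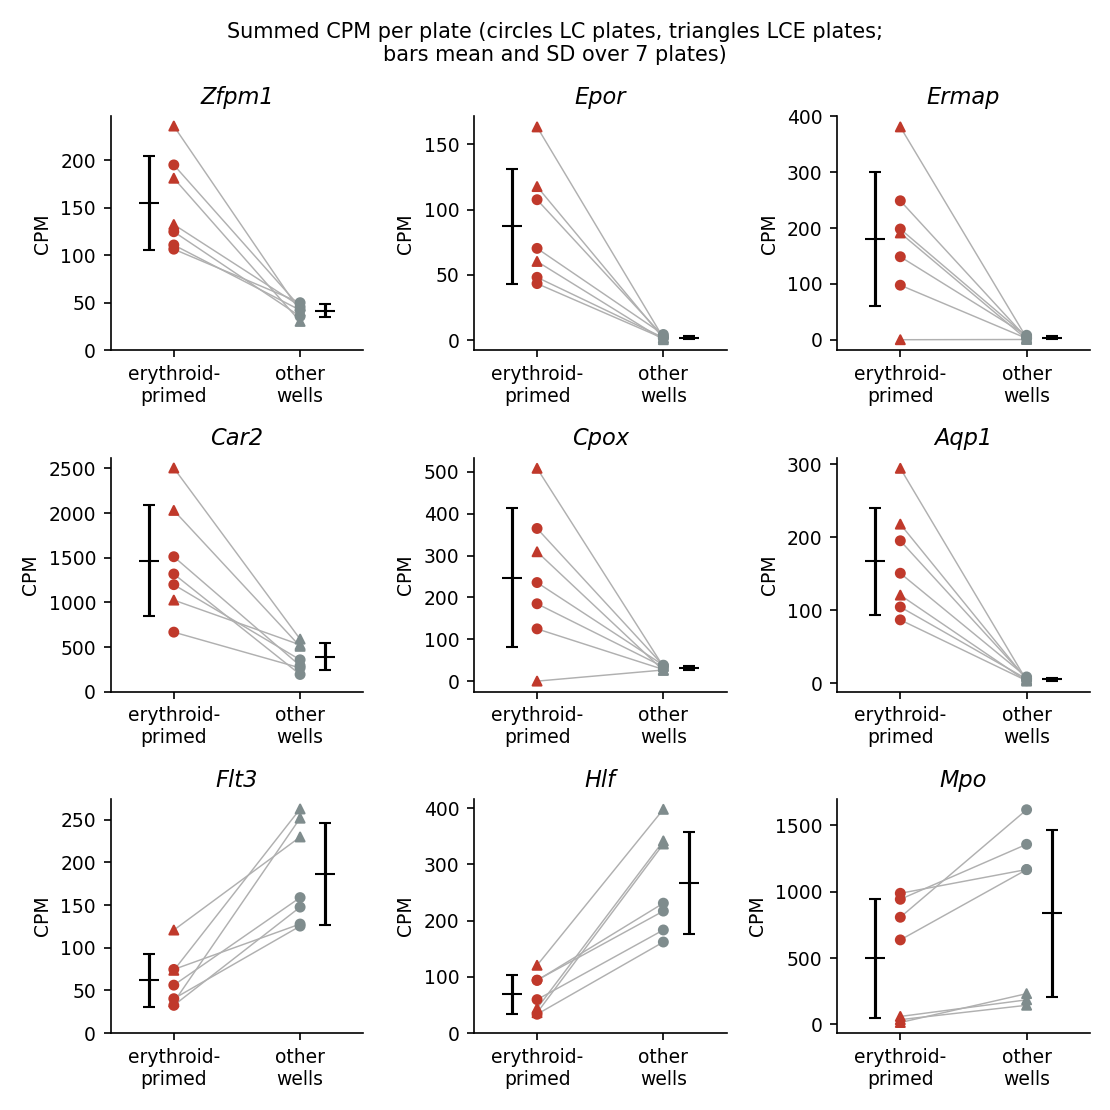
CPM (linear axes) of 9 genes in erythroid-primed wells (left in each panel) and other wells (right), 1 point per plate joined by a line, circles for LC and triangles for LCE plates, with the mean and SD over 7 plates. Zfpm1, Epor and Car2 are higher and Flt3 and Hlf lower in erythroid-primed wells without overlap, while Ermap and Cpox are at 0 on replicate 6.

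GATA1 and GATA2 bind the letters GATA in DNA, and AGATAA and TGATAA are common forms of the longer motif, so promoters were searched for both on both strands, with overlapping matches counted apart. The RefSeq promoter table (build GRCm38.p6, 250 bases before to 50 bases after a gene's start) holds 22 of the 29 genes formed by Car1, Gata1, Klf1 and the early red cell list. A match was present in 7 of these 22 genes (31.8%), beside 5664 of all 27025 genes and 18.6% of all 32851 promoters in the table. The 7 were Klf1, Epor, Gfi1b, Ermap, Rhag, Sphk1 and Icam4; Gata1, Zfpm1, Aqp1 and Blvrb had none of these letters in the window. Printed here, as examples among the 7 genes with a match, are the 250 bases before the start of Klf1 (chr8:84901732-84901981, plus strand), Epor (chr9:21963577-21963826, minus strand), Ermap (chr4:119189996-119190245, minus strand), Rhag, encoding a membrane protein of the Rh complex (chr17:40810899-40811148, plus strand), and Gfi1b (chr2:28621983-28622232, minus strand). Each reads 5′ to 3′ on the gene's strand, and capitals mark the match, which reads TTATCT or TTATCA where the motif is on the other strand. A match is a description of the letters, not evidence of binding.
Klf1: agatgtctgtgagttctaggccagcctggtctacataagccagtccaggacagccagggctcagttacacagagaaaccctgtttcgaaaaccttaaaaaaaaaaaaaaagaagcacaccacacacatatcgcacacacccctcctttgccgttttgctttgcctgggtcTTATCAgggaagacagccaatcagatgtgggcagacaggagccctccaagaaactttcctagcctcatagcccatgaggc
Epor: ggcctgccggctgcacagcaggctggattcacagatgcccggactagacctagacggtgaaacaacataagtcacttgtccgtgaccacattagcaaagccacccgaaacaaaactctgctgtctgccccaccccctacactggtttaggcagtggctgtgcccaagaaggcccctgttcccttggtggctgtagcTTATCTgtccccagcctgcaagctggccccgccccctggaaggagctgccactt
Ermap: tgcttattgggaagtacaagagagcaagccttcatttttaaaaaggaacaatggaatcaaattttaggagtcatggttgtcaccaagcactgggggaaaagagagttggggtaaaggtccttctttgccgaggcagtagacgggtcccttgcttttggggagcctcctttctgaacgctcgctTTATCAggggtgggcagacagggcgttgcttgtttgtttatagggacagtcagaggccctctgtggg
Rhag: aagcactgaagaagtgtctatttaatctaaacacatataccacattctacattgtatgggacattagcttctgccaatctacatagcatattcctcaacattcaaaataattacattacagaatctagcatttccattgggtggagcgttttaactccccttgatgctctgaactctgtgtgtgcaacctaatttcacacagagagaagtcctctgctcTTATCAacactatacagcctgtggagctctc
Gfi1b: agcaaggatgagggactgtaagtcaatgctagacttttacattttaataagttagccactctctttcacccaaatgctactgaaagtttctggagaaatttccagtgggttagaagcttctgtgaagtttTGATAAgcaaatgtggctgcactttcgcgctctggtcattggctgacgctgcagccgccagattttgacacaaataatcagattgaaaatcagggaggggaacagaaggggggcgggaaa
The match began 80 bases before the start of Klf1, 54 before that of Epor, 67 before that of Ermap, 31 before that of Rhag and 120 before that of Gfi1b.

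The haem and iron genes rose in part. Of 18 listed, 11 rose and 1 fell in erythroid-primed wells, beside 2.4% and 4.21% of all genes tested, with a median log2 difference of 1.40. Haem is built from glycine and succinyl-CoA in a chain of enzymes that begins and ends in the mitochondrion. Cpox, a late enzyme of that chain, was 247 ± 166 CPM in erythroid-primed wells and 32.0 ± 5.26 CPM in the other wells (2.81 ± 0.21, edgeR adjusted p = 2.19e-39). Alad (1.89), Urod (1.32), Uros (1.36) and Fech (1.77), which catalyse other steps, rose as well. So did Abcb10 (1.5) and Slc25a38 (1.43), transporters of the inner mitochondrial membrane, and the iron uptake genes Tfrc (1.83), Steap3 (1.88), an iron reductase, and Slc11a2 (1.88), an iron transporter. Slc25a38 and Slc11a2 did not pass without replicate 4 (1.01 and 1.48), nor did Abcb10 without replicate 2 (1.24), nor Uros without replicate 4, 5 or 7 (1.09 to 1.24).

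Alas1, which encodes the first enzyme of the chain in most tissues, fell, at 36.0 ± 22.4 CPM in erythroid-primed wells and 67.0 ± 31.5 CPM in the other wells (-0.86 ± 0.28, edgeR adjusted p = 0.033). It was lower on 7 of 7 plates but did not pass without replicate 1, 2, 3 or 4, where the difference was -0.92 to -0.83. Alas2, the form of that enzyme found in red cells, had 0 counts in erythroid-primed wells and 6 in the others. Fth1, Ftl1, Ppox, Slc25a37 and Tfr2 were among those that did not pass. The ferritin chain Fth1 had 875 ± 257 CPM in erythroid-primed wells and 658 ± 53.9 CPM in the other wells.

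Globin and other late red cell transcripts were higher in part. Of 14 listed late genes 13 were in the tables and 5 could be tested, and the 4 globins rose: Hba-a1 (4.01 ± 0.28), Hba-a2 (4.17 ± 0.30), Hbb-bs (3.18 ± 0.27) and Hbb-bt (2.57 ± 0.23), which are near-identical in pairs and may share counts. Each was higher on 5 of 7 plates. A single well on replicate 7 held 119, 108, 116 and 105 counts of Hba-a1, Hba-a2, Hbb-bs and Hbb-bt, 2.54% of all its counts and the largest share among the 83. Without wells at 2% globin or more 4 of 5 genes passed, and with DESeq2 2 of 5 did, the alpha globins. With no filter 11 of 13 late genes rose and 0 fell, and with LC plates alone 9 of 10 rose. Among late genes outside the test, Rhd, of the Rh blood group, had 122 counts in 27 of the 83 wells, against 55 counts in 48 of the 2644 other wells. Kel, of the Kell blood group, had 58 counts in 20 wells, against 18 counts in 14 other wells. Slc4a1, the band 3 anion exchanger, had 5 counts in 2 wells, against 3 counts in 2 other wells.

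**Figure D3:**
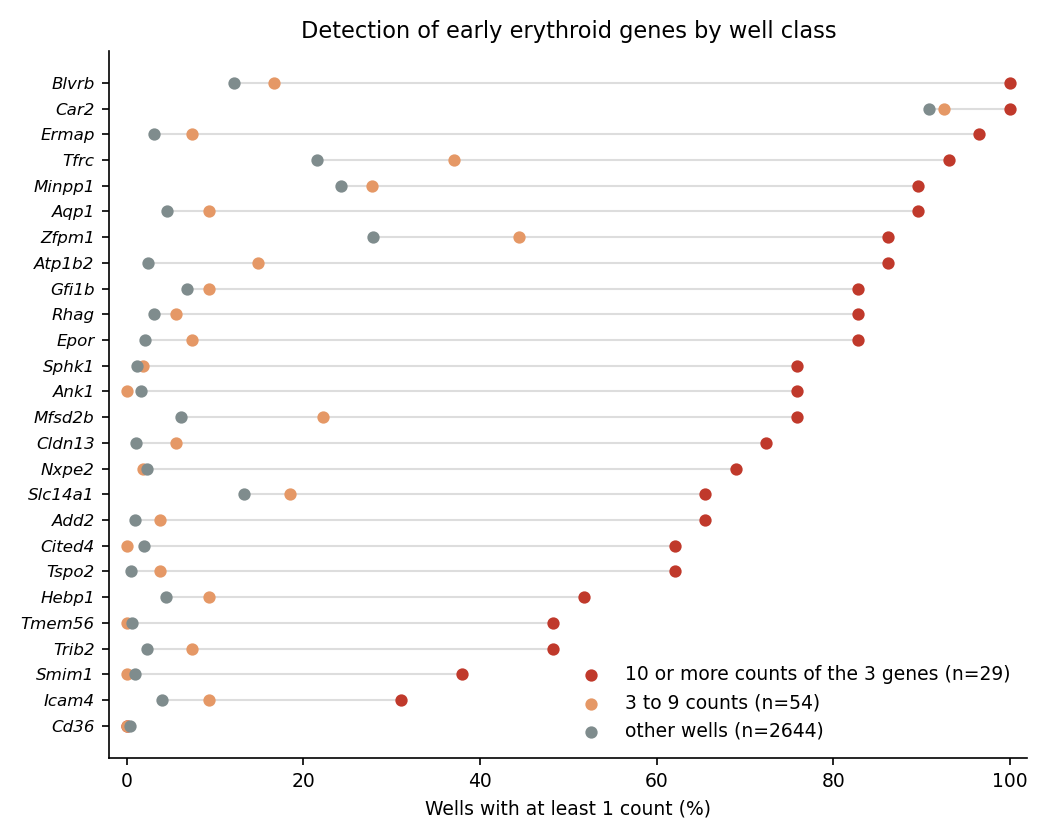
Percent of wells with at least 1 count of each early red cell gene, in the 29 wells with 10 or more rule counts, the 54 with 3 to 9, and the 2644 other wells, whose median depths were 24815, 11526 and 8672 counts. Ermap was detected in 28 of 29, 4 of 54 and 82 of 2644 wells.

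The red lineage genes were concentrated in the 29 wells with the highest rule counts, which were also the deepest, with a median of 24815 counts, against 11526 in the 54 wells of lower sums and 8672 in the 2644 other wells. Ermap was detected in 28 of 29 wells, in 4 of 54 and in 82 of 2644. Epor was detected in 24, 4 and 53 wells of these groups, and Blvrb in 29, 9 and 320. Ank1, which encodes the ankyrin that anchors the red cell membrane skeleton, was detected in 22 of 29 wells, in 0 of 54 and in 42 of 2644. In summed RNA, scaled for depth, Ermap was 339 CPM in the 29 wells, 5.75 CPM in the 54 and 3.63 CPM in the others. The corresponding values were 122, 11.5 and 2.24 CPM for Epor, and 2128, 480 and 366 CPM for Car2. So the name erythroid-primed fits the 29 wells by genes the rule did not use. In the 54 wells most of these genes were seldom detected, and the summed levels of Ermap, Epor and Car2 lay between those of the 29 wells and of the others. Those wells are named by the rule alone.

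Other transcripts also differed between the 2 ranges. Cd34, a stem and progenitor cell surface protein, was 59.1 CPM in the 29 wells, 325 CPM in the 54 and 371 CPM in the other wells. Mpo, the neutrophil peroxidase, was 279, 1233 and 947 CPM in the same groups. Gata2, the GATA factor of stem cells and mast cells, was 88.7, 158 and 90.8 CPM, and Apoe, a lipid carrier protein, was 44.3, 173 and 55.8 CPM. The groups drew on the plates unequally, with 24 of the 29 wells, 50 of the 54 and 1291 of the 2644 others from LC plates, and Mpo in the other wells ranged from 145 to 1617 CPM over plates, so no order is read from these pooled values. Dach1 itself was 9.40 CPM in the 29 wells, 61.9 CPM in the 54 and 33.4 CPM in the others. When only wells with a sum of 5 or more were used (37 wells, a limit set apart from these 2 ranges), the number of genes called became 1613, of which 428 were higher.

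Genes named by size give the same picture. Besides Ermap, Epor, Aqp1, Trib2 and Blvrb, the 10 largest rises included Mt2, a metallothionein that binds zinc and copper, at 198 ± 101 CPM in erythroid-primed wells and 4.90 ± 4.94 CPM in the other wells (5.31 ± 0.27, edgeR adjusted p = 5.95e-82). Ctse, the aspartic protease cathepsin E, was 198 ± 174 CPM in erythroid-primed wells and 16.6 ± 7.44 CPM in the other wells (3.30 ± 0.25, edgeR adjusted p = 9.94e-37). Myo1d, an unconventional myosin (4.32 ± 0.45), Abcb4, a phospholipid transporter (4.01 ± 0.29), and Tspan33, a tetraspanin (3.46 ± 0.40), completed them.

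Among the 10 largest falls were genes near 0 in erythroid-primed wells. Hmga2, a chromatin protein of fetal stem cells, was 2.94 ± 5.12 CPM in erythroid-primed wells and 29.1 ± 11.4 CPM in the other wells (-2.54 ± 0.51, edgeR adjusted p = 5.02e-05). Esr1, the oestrogen receptor, was 5.39 ± 5.88 CPM in erythroid-primed wells and 38.4 ± 6.12 CPM in the other wells (-2.11 ± 0.45). Padi4, a histone-modifying enzyme, differed by -2.37 ± 0.56, Ltb, the lymphotoxin beta chain, by -2.15 ± 0.56, and App, the amyloid precursor protein, by -1.96 ± 0.52. C230085N15Rik (-2.05), Tspan2 (-2.03), Shisa8 (-2.0) and Fgd2 (-1.97) were, like these, lower on 7 of 7 plates. Several of these calls rested on 1 plate. Tspan2 (-1.52) and C230085N15Rik (-1.70) did not pass without replicate 4, App (-1.68) without replicate 2, Shisa8 without replicate 1 (-1.77) or 4 (-1.76), and Ltb without replicate 7 (-1.74).

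Among regulators that work with GATA1, 4 of 16 rose and 1 fell, with a median log2 difference of 0.10. Gfi1b and Zfpm1 are given above. Klf3, a repressor that KLF1 switches on, rose by 0.86 ± 0.25 and Tal1, the SCL factor, by 0.71 ± 0.22. Neither passed without replicate 2 (0.82 and 0.56) or replicate 4 (0.67 and 0.63), nor Tal1 without replicate 3 (0.72). Lmo2, the bridging protein of that complex, fell, at 299 ± 66.0 CPM in erythroid-primed wells and 432 ± 72.9 CPM in the other wells (-0.63 ± 0.16, edgeR adjusted p = 0.00345, lower on 7 of 7 plates). Gata2 was 148 ± 158 CPM in erythroid-primed wells and 90.3 ± 14.8 CPM in the other wells (0.27 ± 0.22, edgeR adjusted p = 0.550). Of the 8 erythropoietin pathway genes tested, Epor rose and Pim1, a kinase induced by STAT5, fell, at 90.7 to 302 CPM in erythroid-primed wells (median 224) and 340 to 549 CPM in the other wells (median 389), without overlap (-0.96 ± 0.17, edgeR adjusted p = 1.62e-06). Kit, the stem cell factor receptor, ranged from 60.4 to 239 CPM in erythroid-primed wells and from 199 to 255 CPM in the other wells (-0.53 ± 0.18, edgeR adjusted p = 0.0521). It passed with DESeq2 size factors (-0.48) and without replicate 1 (-0.65) or 3 (-0.64).

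Lymphoid, and granulocyte and monocyte, genes were lower. All 12 lymphoid priming genes tested, of 18 listed, fell, beside 4.21% of all genes, with a median log2 difference of -1.36. Flt3, which encodes CD135, ranged over plates from 32.6 to 121 CPM in erythroid-primed wells (median 56.2) and from 125 to 262 CPM in the other wells (median 159), without overlap (-1.55 ± 0.22, edgeR adjusted p = 1.04e-09). Dntt, the terminal transferase of lymphoid cells, was 63.9 ± 27.2 CPM in erythroid-primed wells and 218 ± 89.5 CPM in the other wells (-1.42 ± 0.21, edgeR adjusted p = 4.93e-09). Cd74, which chaperones class II histocompatibility molecules, fell by 1.93 on the log2 scale, and Satb1, which shapes chromatin in T cells, fell by 1.27. Of 17 granulocyte and monocyte genes tested, 11 fell and none rose, with a median of -0.84. Irf8, a factor of monocytes and dendritic cells (-1.80 ± 0.30), and the protease gene Prtn3 (-1.04 ± 0.17) were among them. Mpo was 498 ± 445 CPM in erythroid-primed wells and 838 ± 628 CPM in the other wells (-0.84 ± 0.17, edgeR adjusted p = 4.29e-05, lower on 7 of 7 plates), but did not pass with DESeq2 (-1.17). Of 6 B cell genes tested 4 fell, but 1 of 6 did with DESeq2, 2 of 8 with LC plates alone, 1 of 9 with LCE plates alone and 1 of 4 in wells thinned to 3000 counts. In the same thinned wells 3 of 11 lymphoid genes and 1 of 13 granulocyte and monocyte genes fell, and with LCE plates alone 2 of 12 of the second list did.

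Stem cell genes were mostly lower or not called: 5 of 14 tested fell and 1 rose. Hlf, a stem cell transcription factor, ranged from 33.6 to 121 CPM in erythroid-primed wells (median 59.7) and from 162 to 398 CPM in the other wells (median 231), without overlap (-1.73 ± 0.21, edgeR adjusted p = 2.4e-14). Ifitm3 (-1.0), Ifitm1 (-0.86), interferon-induced membrane proteins, Angpt1 (-0.88), a vascular growth factor, and Ly6a (-0.94), which encodes Sca1, fell as well. Ly6a did not pass with LC plates alone (-0.60) or without replicate 2, 4, 5, 6 or 7 (-1.06 to -0.79). Apoe rose by 0.88 ± 0.24, but its value without replicate 6 was 0.61 and not past the threshold.

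Markers of the nearest other cell types were measured for the same wells. Of 9 megakaryocyte genes tested, of 20 listed, Gp9, of the platelet von Willebrand receptor, rose (1.54 ± 0.50), a call lost without replicate 1, 3, 4, 6 or 7 (1.34 to 1.55). Pf4, platelet factor 4, was 32.7 ± 65.9 CPM in erythroid-primed wells and 19.5 ± 17.2 CPM in the other wells (-0.35 ± 0.49, edgeR adjusted p = 0.781). The summed level of the 20 genes ranged from 90.7 to 1328 CPM in erythroid-primed wells and from 323 to 480 CPM in the other wells. Of 3 mast cell and basophil genes tested, of 13 listed, Il1rl1, the receptor of interleukin 33, rose (2.56 ± 0.40), and the summed level of the 13 ranged over plates from 72.6 to 206 CPM in erythroid-primed wells and from 38.1 to 117 CPM in the other wells. Of 4 macrophage genes tested, of 10 listed, Slc40a1, the iron exporter ferroportin, which red cell precursors also make, rose (2.0 ± 0.40), and the summed level of the list ranged from 0 to 98.1 CPM in erythroid-primed wells and from 22.7 to 68.2 CPM in the other wells. Of 1 neutrophil, 5 immediate early and heat shock and 16 ribosome biogenesis and Myc genes tested, 0 passed with edgeR or DESeq2, and 1, 2 and 4 had an unadjusted edgeR p under 0.05 (0, 1 and 5 with DESeq2). What part cells of these kinds had in the results was not tested.

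Cell cycle genes were higher in part, in wells that were also deeper. Of 16 genes of the G2 and M phases 6 rose and none fell (median log2 difference 0.58), and of 16 S phase genes 3 rose and none fell (median 0.14), beside 2.4% of all genes tested that rose. The number of S phase genes called by edgeR was 0 with no filter and 0 in thinned wells, where 4 and 1 had an unadjusted p under 0.05, and 1 with LC plates alone; DESeq2 called 1. For the G2 and M phases it was 3 with no filter, 3 with LC plates alone and 2 with LCE plates alone. Cks2, a subunit of cyclin-dependent kinases, ranged from 156 to 302 CPM in erythroid-primed wells (median 212) and from 29.9 to 109 CPM in the other wells (median 77.9), without overlap (1.27 ± 0.20, edgeR adjusted p = 2.41e-08). Plk1, a mitotic kinase, differed by 1.21 ± 0.28 and Ube2c, a ubiquitin-conjugating enzyme of mitosis, by 0.91 ± 0.21. The proliferation marker Mki67 (0.52 ± 0.17) and the S phase genes Cdc6 (0.93 ± 0.31) and Rrm2 (0.66 ± 0.19) did not pass without replicate 5 (0.47, 0.59 and 0.32) or replicate 7 (0.41, 0.65 and 0.51), nor Mki67 without replicate 2 or 4 (0.59 and 0.58), nor Cdc6 without replicate 1 or 4 (0.96 and 1.0). In thinned wells 0 of 15 G2 and M phase genes passed with edgeR, and 4 had an unadjusted p under 0.05.

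**Figure D4:**
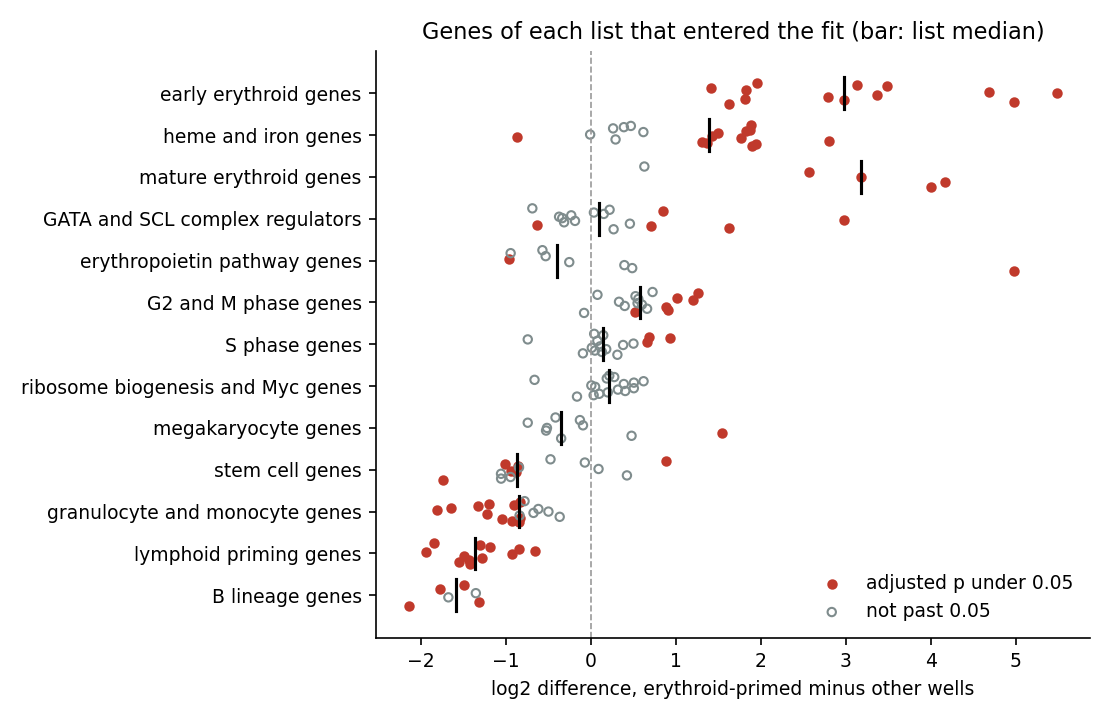
Log2 differences (erythroid-primed minus other wells) of the tested genes of 13 lists, 1 point per gene, filled where the adjusted p was under 0.05, with each list's median as a bar. Early erythroid genes have a median of 2.98 and lymphoid priming genes one of -1.36, against -0.10 for all genes.

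The sorted proteins gave a readout the rule did not use. Each fluorescence was turned into a percentile rank within its plate, and the medians of erythroid-primed and other wells were compared over the 7 plates. CD135, the FLT3 receptor, had median ranks of 7.29 to 24.4 over plates in erythroid-primed wells (median plate 12.3), against 50.4 to 52.6 in the other wells (median plate 51.3). All 7 values lay below those of the other wells, and the mean difference was -36.0 ± 5.43 ranks (SD; exact sign-flip permutation p = 0.0156, two-sided, the smallest possible, adjusted p = 0.0547 over 7 proteins). Sca1 was lower on 7 of 7 plates too, at a mean rank of 21.4 in erythroid-primed and 51.1 in other wells (-29.7 ± 12.6, exact p = 0.0156, adjusted p = 0.0547). CD150, found on stem cells and on some megakaryocyte and red cell progenitors, was higher on 6 of 7 plates, at a mean rank of 74.4 in erythroid-primed and 49.6 in other wells (24.8 ± 21.1, exact p = 0.0312, adjusted p = 0.0729). After adjustment these 3 did not pass 0.05. With the 3 genes at a sum of 2 or more, which gave 8 plates, the adjusted p of CD135 (-33.2) and of Sca1 (-25.0) was 0.0273.

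Dach1-GFP did not shift in 1 direction. Its difference in median rank was -4.84, 3.82, 12.4 and -25.0 on replicates 1 to 4 and -15.2, 35.0 and 25.1 on replicates 5 to 7 (mean 4.46 ± 21.4, exact permutation p = 0.609, adjusted p = 0.711). Dach1 RNA likewise did not pass, at 27.4 ± 26.3 CPM in erythroid-primed wells and 30.9 ± 13.5 CPM in the other wells (-0.12 ± 0.34, edgeR adjusted p = 0.913). The 2 ranges of rule counts lay on opposite sides of the plate medians, again as a description. GFP was at or under its plate's median in 25 of the 29 wells with high sums (median rank 25.6), in 18 of the 54 with low sums (median rank 74.7) and in 1307 of 2620 other wells. CD135 was at or under its plate's median in 29 of 29, 37 of 54 and 1284 of 2620 wells.

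**Figure D5:**
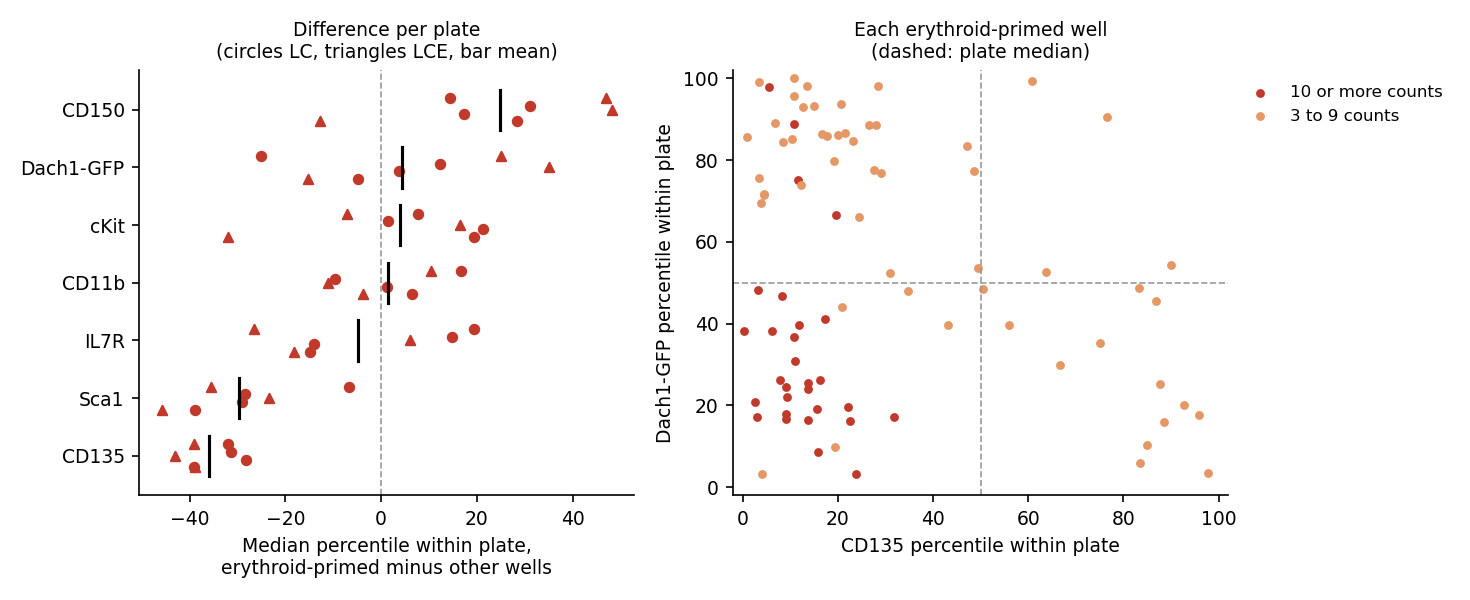
Left, the difference in median percentile within a plate (erythroid-primed minus other wells) for each sorted protein, 1 point per plate, with the mean as a bar; right, Dach1-GFP percentile against CD135 percentile of each of the 83 erythroid-primed wells. CD135 and Sca1 lie below 0 on 7 of 7 plates, and the 29 wells with high rule counts (red) lie at CD135 percentiles of 0.294 to 31.8.

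cKit (3.87 ± 18.8), IL7R (-4.80 ± 17.9) and CD11b (1.43 ± 10.4) had differences in rank smaller than their SD over plates, each with an exact permutation p of 0.5 or more. The LCE plates recorded further proteins on 3 plates with erythroid-primed wells, 9 wells in all, where the smallest exact p is 0.25. CD48, carried by most progenitors but not by long-term stem cells, was lower on 3 of 3 plates (-25.5 ± 14.4), as were CD16/32 (-18.4 ± 24.3) and PIR-A (-19.8 ± 22.7). Without replicate 5, which held 2 of these wells, the last 2 differences were -4.34 and -6.72. By position in the CD135 and CD150 plot, 40 of 74 erythroid-primed wells of the LC plates (54.1%) were at or under the plate's median of CD135 and above that of CD150, against 385 of 1287 other wells (29.9%). On the LCE plates 7 of 9 (77.8%) were, against 377 of 1333 other wells (28.3%).

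Megakaryocyte-primed wells, with Pf4 and Itga2b counts summing to 3 or more, belong to a lineage that shares a progenitor with red cells. They numbered 122, and 12 wells met both rules, 14.5% of the 83 and 9.84% of the 122. Of all kept wells, 7.18% on LC and 1.76% on LCE plates were megakaryocyte-primed, and 3.04% on all plates were erythroid-primed. Both rules are limits on raw counts, so depth favours both. On the 4 LC plates, 64 erythroid-primed wells were compared with 88 megakaryocyte-primed wells, leaving out the wells that met both rules. Of 5518 genes tested 97 (1.76%) were higher and 86 (1.56%) lower in erythroid-primed wells, 3.32% in all. DESeq2 called 64 and a fit without the plate as a block 82. Leaving out replicate 1 or 2 gave 112 or 116.

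Sphk1, the kinase that makes sphingosine-1-phosphate, was 128, 73.2, 89.5 and 76.8 CPM in erythroid-primed wells and 0 on all 4 plates in megakaryocyte-primed wells, 96 counts against 0, at least 37.7-fold higher when set against a floor of 3 counts over the group. Slc38a5, an amino acid transporter, was 60.5, 37.7, 82.1 and 52.8 CPM in erythroid-primed wells and 0 in megakaryocyte-primed wells, 59 counts against 0, at least 23.2-fold higher. Neither had a count among the 1354847 counts of the megakaryocyte-primed wells. Ermap (5.72 ± 0.46), Rhag (5.55 ± 0.64) and Mt2 (5.08 ± 0.37) were the next largest (edgeR adjusted p = 2.68e-10, 4.19e-07 and 6.51e-11). Of 14 early red cell genes tested, of 26 listed, 12 rose (median 3.26), and of 12 haem and iron genes 7 rose. Since a gene high in erythroid-primed wells passes the filter through them, these counts are a description; without the filter 20 of 26 early red cell and 6 of 18 haem and iron genes rose, and none fell. Zfpm1, which both lineages use, was 138 ± 41.5 CPM in erythroid-primed wells and 60.7 ± 23.6 CPM in megakaryocyte-primed wells (1.12 ± 0.29, edgeR adjusted p = 0.0246).

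On the lower side, Poc1b, a centriole protein, was 6.73, 15.5, 0 and 12.0 CPM in erythroid-primed wells and 64.7, 47.2, 58.4 and 53.1 CPM in megakaryocyte-primed wells (-2.33 ± 0.53; edgeR adjusted p = 0.00943), without overlap. H1fx, a linker histone (-1.92 ± 0.50), Def6, a guanine nucleotide exchange factor (-1.87 ± 0.50), and Ffar2, a receptor for short-chain fatty acids (-1.78 ± 0.48), were also among the 5 largest falls. Def6 did not pass without replicate 1 (-1.61), H1fx without replicate 3 or 4 (-1.56 and -1.83), and Ffar2 without replicate 2, 3 or 4 (-1.83 to -1.45). Gata2 was 112 ± 58.1 CPM in erythroid-primed wells and 160 ± 46.4 CPM in megakaryocyte-primed wells (-0.59 ± 0.29, edgeR adjusted p = 0.315).

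Against granulocyte-monocyte-primed wells, with Elane, Ctsg and Prtn3 summing to 10 or more, the comparison was narrow. That limit took 77.3% of LC and 2.28% of LCE wells, so it separated few cells on the LC plates, and 60 of the 83 erythroid-primed wells (72.3%) met it. Of those that did not meet it, 19 wells on replicates 2, 3, 4 and 7 were compared with 686 wells. Of 1710 genes tested 5 (0.292%) were higher and 8 (0.468%) lower, 0.76% in all. The number called was 4 without replicate 2 or 4, 61 without replicate 3 and 27 without replicate 7. Car2 was 1363, 358, 2310 and 2030 CPM in the erythroid-primed wells and 332, 228, 269 and 244 CPM in the granulocyte-monocyte-primed wells (2.35 ± 0.26, edgeR adjusted p = 1.62e-05), and was higher on 4 of 4 plates. Sept8 (2.29), Kti12 (1.86) and Mns1 (1.88) were also higher. Bcl2, an inhibitor of apoptosis, was 13.4, 25.5, 64.2 and 0 CPM in erythroid-primed wells and 156, 157, 161 and 179 CPM in granulocyte-monocyte-primed wells (-2.83 ± 0.62, edgeR adjusted p = 0.0237). Mpo (-1.86), Emb (-1.81), H2afy (-1.54) and Cd34 (-1.43) were lower as well. Mpo is in the same granulocyte and monocyte list as the 3 genes that chose the arms, so its fall is a description. Car2 and H2afy passed with each plate left out in turn.

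Among the 83 wells, those with Car1 were compared with those without it. Car1 is a gene of the rule and was detected in 27 of the 29 wells with high sums and in 35 of the 54 with low sums, so this division follows the rule sum in part. On replicates 2, 3 and 4, the plates with at least 3 wells of each kind, 49 wells with Car1 were compared with 17 without, and of 2152 genes tested 2 (0.0929%) were higher and 4 (0.186%) lower in wells with Car1, 0.279% in all. Sphk1 had 94 counts in wells with Car1 against 0, at least 7.65-fold higher over a floor of 3 counts. It passed the filter only through the wells with Car1, so its rise is a description. Minpp1 was 193, 303 and 124 CPM in wells with Car1 and 60.9, 32.2 and 0 CPM in wells without (2.46 ± 0.57, edgeR adjusted p = 0.0262). Lmo4, a LIM domain cofactor, was 78.3, 41.0 and 99.9 CPM in wells with Car1 and 400, 756 and 225 CPM in wells without (-2.42 ± 0.38, edgeR adjusted p = 0.000111). Ifitm1 (-1.17 ± 0.26) and Mpo (-0.95 ± 0.18) were lower as well. Without replicate 3 edgeR called 0 genes, where 244 had an unadjusted p under 0.05, and without replicates 4 and 2 it called 2 and 11. DESeq2 called 1 in all plates. So few calls do not show that the wells were alike.

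The plate sets were compared last. A test of whether the difference between erythroid-primed and other wells differed between the plate sets called 61 of 10365 genes, 6 (0.0579%) with a more positive and 55 (0.531%) with a more negative difference on LCE plates, 0.589% in all (12 and 28 with DESeq2 size factors). Of the 13 early red cell genes 0 passed it with edgeR, and 2 had an unadjusted p under 0.05. Of the 18 haem and iron genes 0 passed and 0 had an unadjusted p under 0.05. The 9 LCE wells held 139653 counts in all, against 1299890 in the 74 LC wells, so a difference between the plate sets that misses the threshold is not shown to be absent. The number called was 11 to 40 without replicate 1, 2, 3, 4, 5 or 7 and 152 without replicate 6.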

How the data were processed

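Single LSK cells of Dach1-GFP mice were index-sorted into 8 plates, 1 cell per well, and read by CEL-seq2. The authors deposited raw counts per gene and well for each plate; which aligner and counting tool were used, whether by strand, and how molecular tags were treated is not stated there. GRCh38, a human assembly, is named as the build, per the submitters' processing notes, while gene identifiers are mouse Ensembl identifiers, so coordinates are given only for promoters. The deposited sort records hold fluorescence intensity per well on a linear scale with values below 0, per the file headers. The 83 wells and all gene lists were chosen with earlier results of these data known.

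Gene symbols matched 27249 of 27318 identifiers. Spike-in RNA, 3.42% to 4.83% of counts on LC plates and counted there only, stayed out of library sizes. Of 3064 wells 2727 were kept, 338 to 342 per plate; 24 of them lacked a sort record and 3 had 20% or more mitochondrial counts. No doublet caller was run. CPM are counts scaled to a total of 1000000 in a plate and arm. Sums per plate and arm entered edgeR's quasi-likelihood test (version 4.0.16, R 4.3.3) after filterByExpr and TMM scaling, blocked by plate; p-values were adjusted by Benjamini and Hochberg's method over every gene in the fit and called under 0.05; ± after CPM is the SD over plates and after a log2 difference the standard error. Arms of a plate come from 1 library and are paired by design; their deviations from the arm means correlated at 0.103 to 0.279. Ranks of proteins were compared by exact sign-flip permutation over plates. The tests were checked on simulated counts with known changes. The same dispersion was used for every gene, and plates differed in depth only, so recovery in the real data may be lower. Recovery was counted only over changed genes that passed the filter, and those it dropped were left out. Against other, megakaryocyte-primed and granulocyte-monocyte-primed wells, 91.0%, 87.1% and 88.6% of log2 changes of 2 were recovered, among 67, 70 and 35 such genes. By Car1 58.3% were. The comparison of plate sets recovered 3.53% of log2 changes of 2 and 24.6% of log2 changes of 3.

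Named genes are the 4 marker genes, genes of the lists, and the 10 highest and 10 lowest differences past the threshold (5 and 5 in the other comparisons) with 20 CPM or more in the higher arm and 1 sign on all plates but at most 1; in the comparison of plate sets the sign was not required. Alternatives were DESeq2 1.42.0, its size factors, no filter, no plate block, each plate left out, LC or LCE plates alone, sums of 2 or 5, wells chosen by fewer genes, wells thinned to 3000 counts, and wells left out by depth, quality, Pf4 and Itga2b or globin. Some items are not reported here.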

Additional observations from a re-analysis of the deposited data

Results flagged for a closer look

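Depth differed most on replicate 5, whose 2 erythroid-primed wells set it apart from the other plates. The median log2 count was higher in erythroid-primed than in other wells by 1.84 there and by 0.174 to 0.754 on the other 6 plates. The number of genes detected was higher by 2895.5 there and by 299 to 983 elsewhere. Chance alone marks about 1 group in 20 this way.

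The difference between erythroid-primed and other wells itself differed between LCE and LC plates for 61 of 10365 genes (0.589%; edgeR test of the interaction), 6 with a more positive and 55 with a more negative difference on LCE plates. With DESeq2 size factors the numbers were 12 and 28. In the first group, the excess on LCE plates was 2.32 for Mt1, a metallothionein (log2 difference 4.28 on LCE and 1.86 on LC plates), 2.30 for Cdc6 (2.66 and 0.24), 2.01 for Gm26917 (1.81 and -0.25), 1.89 for Rrm2 (2.01 and 0.13) and 1.44 for Cks2 (2.40 and 0.87). In the second group the fitted values were -10.37 for Fchsd2 (-10.05 on LCE and -0.41 on LC plates), -9.99 for Dtx3l (-9.20 and 0.07), -9.93 for Ccnt2 (-8.87 and 0.32), -9.91 for Arhgap18 (-8.79 and 0.38) and -9.88 for Elmo1 (-10.27 and -1.12). Each of these 5 had 0 counts among the 139653 counts of the 9 erythroid-primed LCE wells, against 47 to 133 counts among the 1299890 of the 74 LC wells, so the fitted sizes are not bounds.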

How the results depend on the processing

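Against the other wells, 685 genes were called; the number was 1236 with no filter, 188 with LCE plates alone, 288 at a sum of 2, 1613 at a sum of 5 and 39 in wells thinned to 3000 counts, where fewer counts were tested, and 393 to 723 with 1 plate left out. Against megakaryocyte-primed wells 183 became 64 with DESeq2 and 112 to 183 with 1 plate left out. Against granulocyte-monocyte-primed wells 13 became 84 with no filter, 27 with LC plates alone and 4 to 61 with 1 plate left out. Between wells with and without Car1, 6 became 1 with DESeq2, 13 with its size factors and 0 to 11 with 1 plate left out. The 61 genes that differed between LCE and LC plates became 40 with DESeq2 size factors, 28 with no filter and 11 to 152 with 1 plate left out. Without the plate as a replicate block, the pairing of arms was ignored and the counts were 640 against the other wells, 82 against megakaryocyte-primed wells, 9 against granulocyte-monocyte-primed wells and 4 by Car1.

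The GFP rank difference of 4.46 turned to -4.92 at a sum of 5, -2.32 without wells of Pf4 and Itga2b, and ranged from -0.628 to 9.37 with 1 plate left out. CD135 (-33.2) and Sca1 (-25.0) passed at a sum of 2. CD11b was -0.250 with means, -0.397 without wells of Pf4 and Itga2b, and -1.12 to 3.53 with 1 plate left out. Depth did not pass at a sum of 5 (log2 counts 0.788, genes 1192). The mitochondrial difference passed at a sum of 2 (-0.404) and with means (-0.526), and the spike-in difference was -1.14 at a sum of 5. Shares of wells were 11.1% of LC and 1.47% of LCE wells at a sum of 2 (6.27% of all), 2.20% of LC wells at a sum of 5 (1.36% of all), and 1.62% of LC wells after thinning (1.01% of all).

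Directions that turned, none of them past the threshold in the fit reported, were those of Dach1 (0.11 with no block, 0.30 at a sum of 2, -0.51 to 0.22 with 1 plate left out), Pf4 (0.12 on LCE plates, 0.84 at a sum of 2, 1.07 by Gata1 and Klf1, 0.43 against wells without the 3 genes, -1.0 to 0.31 with 1 plate left out), Gata2 (-0.33 on LCE plates, -0.027 by Car1) and Itga2b (-0.72 at a sum of 5, -0.48 by Car1, -0.27 without wells of Pf4 and Itga2b). Rrm2, which had passed, was -0.37 after thinning. The cause of these changes was not tested. LCE plates alone gave no value for the comparisons with the 2 other lineages or by Car1.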

Other observations

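A single erythroid-primed well, on replicate 3, held 20 counts of Mcpt8, a basophil protease, and 13 of Cpa3, a mast cell carboxypeptidase, beside 4 of Gata1 and 0 of Car1 and Klf1. Of the 2 erythroid-primed wells of replicate 6, 1 held 3 counts of Pf4 and 6 of Itga2b, and its Dach1-GFP was at the 100th percentile of its plate.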
